A study of Homo sapiens with 6 samples.

Results

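The granins, the VGF precursor and the enzymes that turn prohormones into peptides were followed in SH-SY5Y cells, a human neuroblastoma line, exposed to bilirubin. The genes were taken by symbol from a list of 10, namely VGF, CHGA, CHGB, SCG2, SCG3, SCG5, PCSK1, PCSK2, CPE and PAM. The platform annotation names 11 probe sets for 8 of them, among 22215 probe sets tested and 11963 genes named on the array, and names none for PCSK1 and PCSK2, which were not analysed here. Since 2108 probe sets have no symbol and 1043 have several in the annotation used, probe sets of these genes may be on the array without a name. The list was chosen by symbol with the differences between the groups on these same 6 arrays already known, so those differences are given as a description with their errors and are not tested. Free bilirubin stood at 140 nM in 3 flasks (Bf 140 nM), and 3 control flasks had DMSO at 0.6% (DMSO 0.6%). According to the methods DMSO was the solvent of the pigment, so both groups share it, and an untreated group was not analysed here. All cells came from this 1 line, with no genetic change given in the labels, and were collected after 4 h. The methods describe separate flasks and independent biological replicates, and the labels number the replicates. Each had its own Affymetrix human expression array, a 1-colour array on which a set of probes measures a transcript.

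Granins are acidic proteins that are packed with hormones, peptides and catecholamines into the dense-core vesicles of endocrine cells and neurons, and are released with them on stimulation. Many vesicle proteins are precursors: prohormone convertases cut them at pairs of basic residues, carboxypeptidase E removes the basic residues left at the cut end, and the enzyme encoded by PAM amidates the C-terminus of peptides that end in glycine. Chromogranin A is a standard marker of neuroendocrine tumours, neuroblastoma among them, because these cells keep the secretory programme of the sympathoadrenal lineage. VGF is best known as a gene induced by nerve growth factor.

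Markers of that lineage were bright for the most part. Of 8 noradrenergic markers measured, 6 lay above the median probe set, with DBH, which makes noradrenaline inside the vesicle, at 12.87 ± 0.21 in Bf 140 nM and 12.72 ± 0.35 in DMSO 0.6% (log2, SD, n = 3 each). TH, the first enzyme of catecholamine synthesis, was dim at 6.58 ± 0.10 and 6.56 ± 0.17, at percentile 12.1 of the DMSO 0.6% arrays. Of 11 mesenchymal or Schwann-like markers, 5 lay above the median probe set, and their mean level per array ran from 8.45 to 8.52 in Bf 140 nM and from 8.43 to 8.59 in DMSO 0.6%. COL1A1, a collagen of mesenchymal cells, had 8.55 ± 0.07 and 8.81 ± 0.23. The Schwann cell markers SOX10 and S100B stood at 7.71 and 7.30 in Bf 140 nM and at 7.81 and 7.38 in DMSO 0.6%, below the median probe set at 7.97, and none of the 4 blood markers lay above it; TH, SOX10 and S100B were picked for mention after their values were seen. Arrays differed in ways the treatment does not define. DMSO 0.6% replicate 3 had a 3′ minus 5′ difference of beta-actin, which grows when the labelled transcripts are incomplete, of 2.21, against 0.10 to 0.89 on the other 5 arrays, and its interquartile range was 2.33. Bf 140 nM replicate 2 had the narrowest range of values, 2.25, while the other 4 arrays were wider, up to 2.66.

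All 8 genes gave bright signals. In DMSO 0.6% their probe sets stood between the 78.5th and the 94.8th percentile of the array, and the median over the genes was 91.3 in DMSO 0.6% and 91.0 in Bf 140 nM. CHGA led with 11.62 ± 0.23, followed by VGF with 11.38 ± 0.27, PAM with 11.32 ± 0.13 and CHGB with 11.24 ± 0.25 (log2, SD, n = 3), and these neighbours differed by less than the larger SD of the pair. CPE at 10.75 ± 0.37 and SCG2 at 10.57 ± 0.43 came next, and did not differ from each other beyond their spread. SCG5 at 9.85 ± 0.30 and SCG3 at 9.84 ± 0.14 closed the order and could not be separated either. Probe sets bind their targets with different strength, so this is an order of signals and not of transcript numbers. In cultures measured as a whole, fewer cells with a transcript and less of it per cell cannot be told apart.

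**Figure D1:**
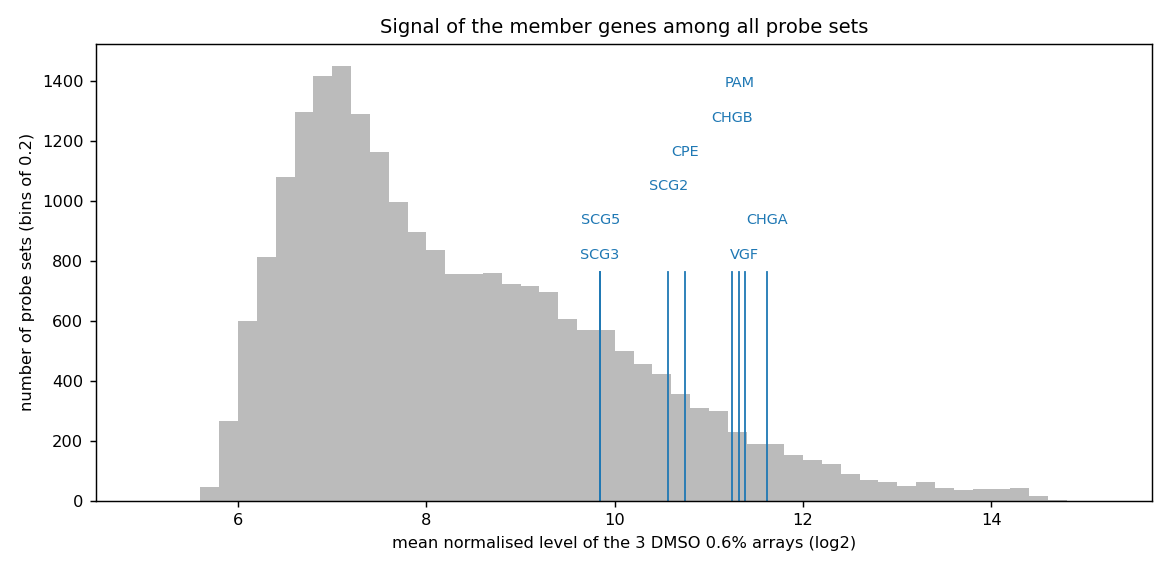
Distribution of the mean normalised level (log2) of all 22215 probe sets over the 3 DMSO 0.6% arrays, with the number of probe sets per bin on the vertical axis; blue lines mark the brightest probe set of each of the 8 genes. All 8 genes lie in the bright part of the distribution, from 9.84 for SCG3 to 11.62 for CHGA.

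VGF encodes a precursor that is cut into several secreted peptides and is known to follow neuronal activity and neurotrophins. Its only probe set, 205586_x_at, read 10.87, 11.35 and 11.00 on Bf 140 nM replicates 1, 2 and 3, and 11.12, 11.66 and 11.36 on the DMSO 0.6% replicates of the same numbers. In every pair of equal number the bilirubin array had the lower value, with differences of -0.25, -0.31 and -0.35, although the groups overlapped, with replicate 2 high in both. The means were 11.08 ± 0.25 and 11.38 ± 0.27 (SD, n = 3 each), a difference of -0.30 (SE 0.18) or a ratio of 0.811 (95% CI 0.606 to 1.08). A difference this low or lower was found for 17 of the 22215 probe sets. Nothing is read from this rank, because the contrast was known when the list was chosen. The within-group SD of VGF was 0.26, above the median of 0.16 over all probe sets and of 0.23 over those as bright as these genes. Its rank among the latter was not counted. In the deposited values VGF was the only gene of the 8 with the same sign in all 3 pairs, and 4.70% of all probe sets were lower in all 3 pairs. None of the 11 probe sets was higher in all 3 pairs, which 8.96% of all probe sets were. With an array left out, the difference lay between -0.44 without Bf 140 nM replicate 2 and -0.16 without DMSO 0.6% replicate 2. It was -0.20 without Bf 140 nM replicate 1 and -0.32 without DMSO 0.6% replicate 3. The ending _x_at marks probes that can also match other transcripts, and no second probe set of VGF is named.

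The chromogranins, which help hormones condense in the forming vesicle, went the other way from VGF from array to array. CHGA (204697_s_at) read 11.97, 11.26 and 12.01 on the 3 Bf 140 nM arrays and 11.84, 11.38 and 11.64 on the 3 DMSO 0.6% arrays. CHGB (204260_at) read 11.62, 10.82 and 11.79 against 11.52, 11.05 and 11.16. The groups overlapped for both genes. Replicate 2 was the lowest array of each group, and Bf 140 nM replicate 2 the lowest of all 6. The difference was 0.13 (SE 0.22) for CHGA, a ratio of 1.09 (95% CI 0.762 to 1.57), and 0.17 (SE 0.26) for CHGB, a ratio of 1.12 (95% CI 0.738 to 1.71). The pairs did not share a sign, with 0.13, -0.12 and 0.37 for CHGA and 0.10, -0.22 and 0.63 for CHGB. Without Bf 140 nM replicate 2 the differences were 0.37 and 0.46, and without Bf 140 nM replicate 3 they were -0.0034 and -0.02.

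Both VGF and CHGA carry the letters of a cAMP response element, TGACGTCA, close to their start, and the stretch before each start is shown because these bright genes with the same element differed in opposite directions between arrays. The bases come from RefSeq (GRCh38.p14), run 5′ to 3′ on the strand of the gene and end at the base before the start, with the element in capitals. VGF lies on the minus strand (chr7:101165570-101165709) and CHGA on the plus strand (chr14:92923010-92923149).
VGF: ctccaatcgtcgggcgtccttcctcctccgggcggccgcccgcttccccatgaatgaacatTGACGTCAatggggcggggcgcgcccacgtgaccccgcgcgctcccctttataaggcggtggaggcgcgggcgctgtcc
CHGA: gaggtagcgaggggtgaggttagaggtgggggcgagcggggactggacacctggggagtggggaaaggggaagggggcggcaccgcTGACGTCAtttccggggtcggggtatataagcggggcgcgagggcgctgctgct
The element begins 79 bases before the start of VGF and 54 bases before that of CHGA. RefSeq windows of 250 bases before to 50 after a start were found for 8 of the 10 genes, and 3 of these hold TGACGTCA, a palindrome that reads the same on both strands: VGF, CHGA and PCSK1. CHGB and SCG2 had no window, so whether they carry the element was not examined. Of all 27305 genes with a window, 2.25% hold it. The shorter TGACGT, searched on both strands and contained in the longer form, was found for VGF, CHGA, PCSK1, PCSK2 and CPE, and for 9.64% of all genes. A match is a description of these letters and not proof of a bound site. The 343 measured genes with TGACGTCA had a median difference of 0.05 and the 9220 without it one of 0.03. CREB1, a factor that binds this element, had 9.87 ± 0.15 in Bf 140 nM and 9.66 ± 0.17 in DMSO 0.6% (SD, n = 3 each).

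The secretogranins are granins with varied roles. SCG2 (204035_at) is the precursor of the peptide secretoneurin, SCG3 (219196_at) helps to carry granins to the vesicle membrane, and SCG5 (203889_at), also called 7B2, is the chaperone of the convertase made from PCSK2. SCG2 read 10.38, 10.55 and 10.76 in Bf 140 nM and 10.55, 11.01 and 10.15 in DMSO 0.6%. Its group means were nearly equal, with a difference of -0.0059 (SE 0.22), but its DMSO 0.6% values spread from the lowest to the highest of the 6 arrays. Its pairs differed by -0.17, -0.46 and 0.61. The low DMSO 0.6% value belongs to replicate 3, the array with the beta-actin difference of 2.21, and without it the difference of SCG2 was -0.22.

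SCG3 read 9.72, 9.74 and 10.13 in Bf 140 nM and 9.69, 9.95 and 9.88 in DMSO 0.6%, a difference of 0.02 (SE 0.14). SCG5 read 9.66, 9.82 and 10.28 against 9.50, 10.03 and 10.01, a difference of 0.07 (SE 0.21). For both genes Bf 140 nM replicate 3 was the highest array and DMSO 0.6% replicate 1 the lowest. Their ratios were 1.02 (95% CI 0.806 to 1.28) and 1.05 (95% CI 0.753 to 1.47). Without Bf 140 nM replicate 3 the differences turned to -0.11 and -0.10, and without DMSO 0.6% replicate 1 to -0.05 and -0.10.

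Of the processing enzymes, CPE and PAM could be measured. The 2 probe sets of CPE did not follow each other. The brighter, 201116_s_at, read 11.00, 10.75 and 10.94 in Bf 140 nM and 11.02, 10.89 and 10.33 in DMSO 0.6%, where replicate 3 stood apart from the rest. Its difference was 0.15 (SE 0.19), and -0.06 without that array. The other probe set, 201117_s_at, read 10.19, 10.10 and 10.83 against 9.92, 10.49 and 10.54, a difference of 0.05 (SE 0.24) with no low value on DMSO 0.6% replicate 3. Over the 6 arrays the probe sets of CPE had a correlation of -0.296. The brighter one had a correlation of -0.918 with the beta-actin difference over the 6 arrays, and of -0.366 over the 5 arrays without DMSO 0.6% replicate 3, so the relation rests on that array. With the beta-actin difference as covariate in the fit, CPE differed by 0.05.

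PAM, whose enzyme needs copper and ascorbate to amidate peptides, had 3 probe sets that moved together. Its brightest probe set, 202336_s_at, read 11.32, 11.14 and 11.65 in Bf 140 nM and 11.23, 11.47 and 11.28 in DMSO 0.6%, a difference of 0.05 (SE 0.15). The other probe sets, 212958_x_at and 214620_x_at, differed by 0.04 (SE 0.14) and -0.0051 (SE 0.11). They followed the first over the 6 arrays with correlations of 0.989 and 0.794. The within-group SD of 214620_x_at was 0.12, the lowest of the 11 probe sets, while CHGB had the highest with 0.41. The median within-group SD was 0.28 over the 11 probe sets, 0.23 over the 3771 probe sets of the same range of brightness and 0.16 over all probe sets.

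**Figure D2:**
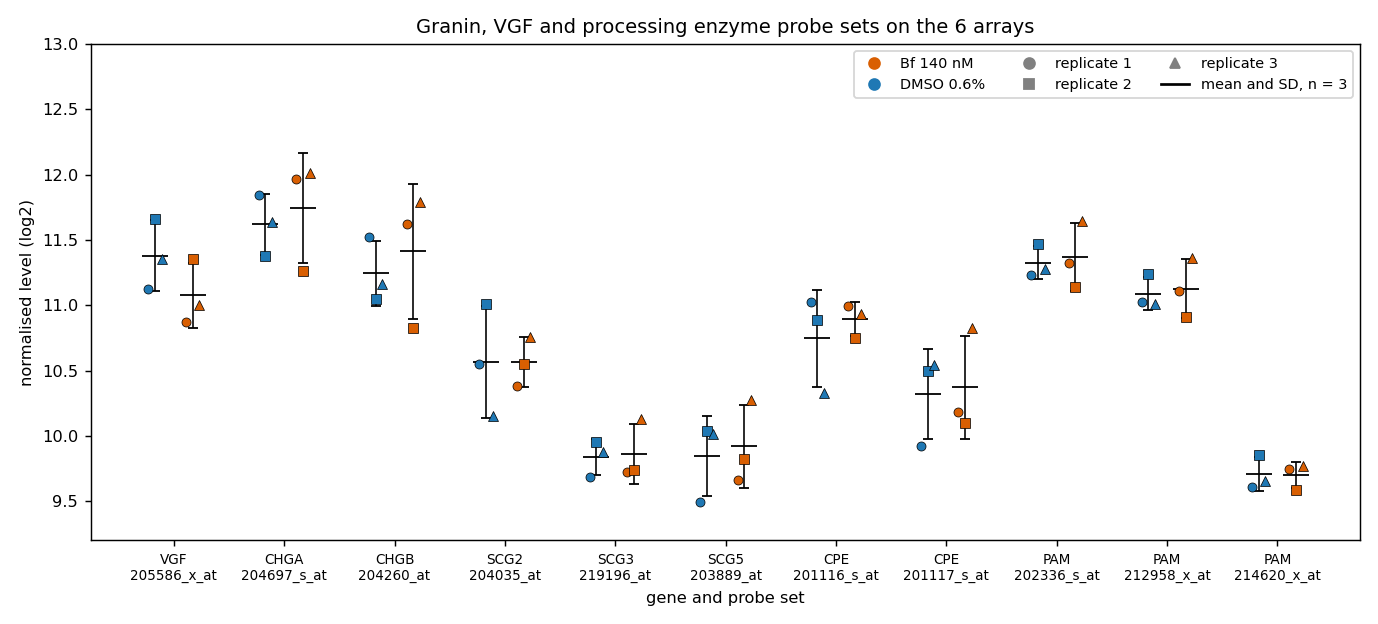
Normalised level (log2) of the 11 probe sets on each array, orange for Bf 140 nM and blue for DMSO 0.6%; the shape of a marker tells the replicate number, and bars are the mean and SD of 3 arrays. VGF is lower in Bf 140 nM for each marker shape, from 11.12 to 10.87 for replicate 1, and every probe set overlaps between the groups.

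Across the array, limma called 0% of the 22215 probe sets at an adjusted p of 0.10, and 0 of the 11 probe sets of these genes. At an unadjusted p under 0.05 the background was 0.0765%, or 17 probe sets, and again 0 of the 11. That share is far below the level of 0.05 itself, so the unpaired fit was conservative on these arrays. A count of 0 therefore does not show that nothing differed, for these genes, the lists or the array. The groups did not overlap for 2.66% of all probe sets (1.68% with Bf 140 nM above and 0.981% with it below) and for 0 of the 11. Since the contrast was known when the genes were chosen, nothing is read from these counts. The median difference of the 8 genes was 0.06, beside 0.06 over the 3771 probe sets of the same range of brightness and 0.03 over all genes. Of the 11 probe sets 8 had a positive difference and 3 a negative one. The intervals stayed within 1 log2 unit of 0 in both directions for every probe set. The limits furthest from 0 were 0.78 for CHGB and -0.72 for VGF, though the interval of VGF was not among the widest.

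Much of what moved from pair to pair was shared by bright probe sets in general. In pair 2 all 11 probe sets were lower in Bf 140 nM, with a median of -0.27. Of the 3771 probe sets with a mean between 9.70 and 11.68, the range of these genes, 88.1% were also lower, with a median of -0.19. In pair 3, 10 of the 11 were higher with a median of 0.35, and VGF was the exception, while 15.4% of the bright probe sets were lower, with a median of 0.26. These pairs hold the arrays of narrow range, Bf 140 nM replicate 2 and DMSO 0.6% replicate 3. Quantile normalization, which gives all arrays the same distribution, brought the medians of the bright probe sets to -0.0065 and 0.0043 in pairs 2 and 3. The medians of the 11 probe sets came to -0.08 and 0.14 in these pairs. In pair 2, 9 of the 11 were still lower, beside 51.6% of the bright probe sets, and in pair 3, 4 of the 11, beside 49.4%. After quantile normalization VGF differed by -0.35, -0.08 and -0.54 and kept its sign in all 3 pairs, with a mean of -0.32. CHGA then differed by 0.05, 0.09 and 0.17, a mean of 0.10, and CHGB by 0.02, -0.02 and 0.39, a mean of 0.13. SCG3 turned to -0.05 and was then negative in all 3 pairs too, with -0.05, -0.05 and -0.03, and SCG5 came to 0.0048. CHGA was then positive in all 3 pairs. The share of all probe sets with the same sign in all 3 pairs was not counted after this step, so nothing is read from these signs.

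**Figure D3:**
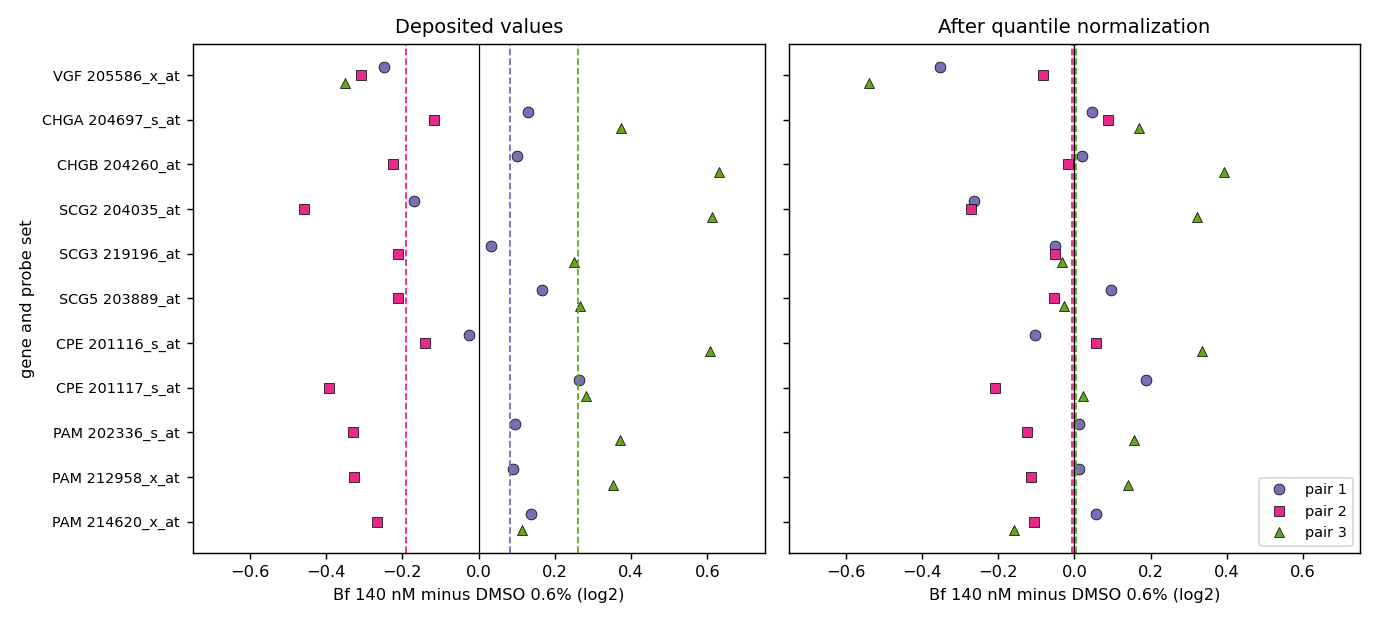
Difference between Bf 140 nM and DMSO 0.6% (log2) in each pair of arrays with the same replicate number, for the deposited values (left) and after quantile normalization (right); dashed lines show the median of the 3771 probe sets of the same brightness in each pair. On the left pair 2 lies below 0 for all 11 probe sets and 10 of 11 lie above 0 in pair 3. On the right the dashed lines meet near 0, while VGF and SCG3 are negative and CHGA is positive in the 3 pairs.

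The genes formed groups by their profile over the arrays. Correlations over 6 arrays are given as a description only, because the arrays share pairs and differences in their range of values. Among the 28 pairs of genes they ran from -0.859 to 0.981, with a median of 0.268. CHGA and CHGB were the closest, with 0.981, and among the 6847 other genes brighter than the median probe set 16 were closer to CHGA. SCG3 and SCG5 followed with 0.949, with 36 genes closer to SCG3. VGF and CHGA were the most opposed with -0.859, and VGF and CHGB had -0.815. After quantile normalization these values were 0.965 for CHGA with CHGB, 0.975 for SCG3 with SCG5, -0.917 for VGF with CHGA and -0.945 for VGF with CHGB. The correlation of SCG3 with PAM went from 0.894 to 0.694. The interquartile range of the array moved with some of these profiles, with a correlation of 0.873 for CHGB, 0.780 for CHGA and -0.519 for VGF over the 6 arrays, and its part in them was not tested beyond quantile normalization. The 3 genes most like VGF were PPFIBP1 (0.988), which encodes a scaffold protein of the liprin family, TNS1 (0.953), which encodes the focal adhesion protein tensin, and NDNF (0.944), a secreted neurotrophic factor gene. They were lower in Bf 140 nM in all 3 pairs, with mean differences of -0.26 (SE 0.19), -0.18 (SE 0.21) and -0.11 (SE 0.12). Being the best of 6847 genes over 6 arrays, they were bound to lie close, so nothing is read from the signs they share with VGF.

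**Figure D4:**
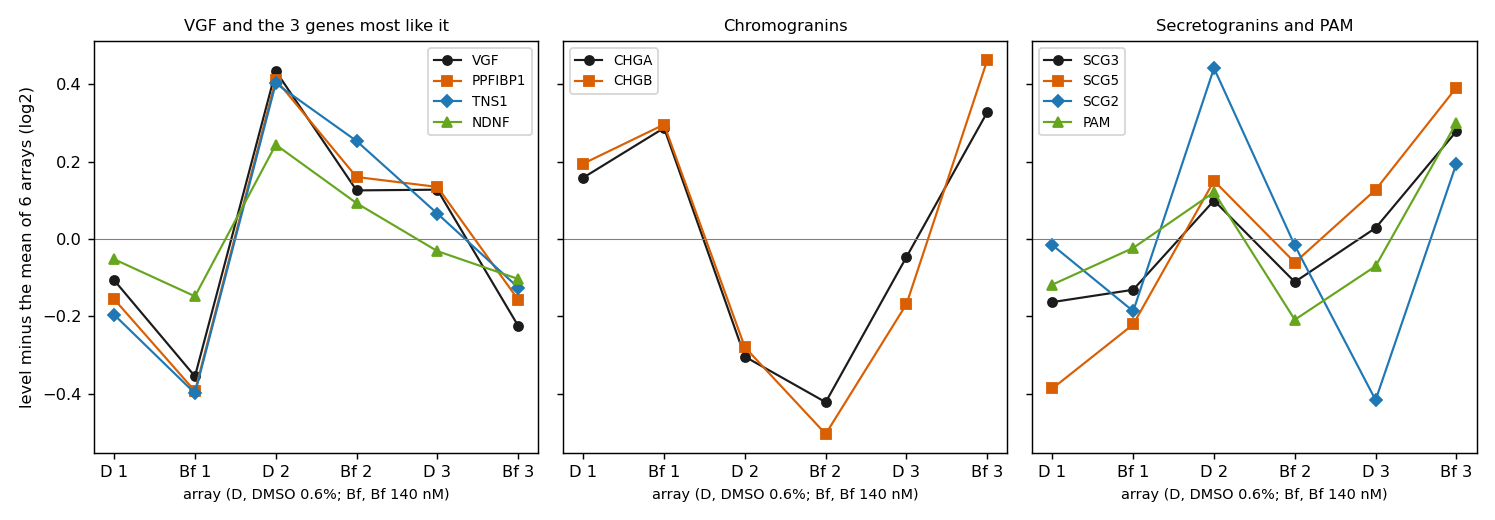
Level minus the mean of the 6 arrays (log2) for VGF with the 3 genes most like it (left), for CHGA and CHGB (middle) and for SCG2, SCG3, SCG5 and PAM (right); arrays are set in pairs of equal replicate number and lines only guide the eye. CHGA and CHGB follow each other (correlation 0.981) and are lowest on the replicate 2 array of each group, where VGF is highest within the group.

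The rest of the pathway was described through 5 lists, in which 0 genes passed an adjusted p of 0.10 in either direction by limma and 0 had an unadjusted p under 0.05. Over all probe sets 36.8% were below 0. Of 8 genes listed for other convertases and their inhibitor 6 were measured, 5 of them above 0, with a median difference of 0.10, or -0.03 without DMSO 0.6% replicate 3 and 0.04 without Bf 140 nM replicate 2. PCSK1N, which encodes an inhibitor of the convertase of PCSK1, had 9.16 ± 0.20 against 9.04 ± 0.27, and FURIN, the convertase of the Golgi in most cells, 8.31 ± 0.09 against 8.22 ± 0.04 (SD, n = 3 each). The list of other enzymes that trim or modify peptides had 13 measured genes and a median of 0.04, or 0.14 without Bf 140 nM replicate 2. In it CPD, a Golgi carboxypeptidase related to CPE, had 9.95 ± 0.48 against 9.98 ± 0.16, while QPCT, which closes N-terminal glutamine into a ring, was among the dimmest at 5.98 ± 0.17 against 5.96 ± 0.04.

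Genes of the dense-core vesicle membrane, its transport and release had a median of 0.08 over 21 measured genes, 15 of them above 0, of 0.01 after quantile normalization, and of 0.03 without Bf 140 nM replicate 2 and 0.05 without DMSO 0.6% replicate 3. PTPRN, a membrane protein of these vesicles, differed by 0.09 (SE 0.14) and the release factor gene CADPS by 0.0099 (SE 0.11). Known regulators of granin and VGF transcription had a median of 0.06 over 10 measured genes, and of -0.02 without DMSO 0.6% replicate 3, 0.0078 without DMSO 0.6% replicate 1 and 0.12 without DMSO 0.6% replicate 2. REST, the repressor that keeps such neuronal genes silent in other tissues, read 8.27 ± 0.06 against 8.40 ± 0.29 and CREB1 differed by 0.21 (SE 0.13), with 0.18, -0.08 and 0.52 in the 3 pairs, the last of which holds DMSO 0.6% replicate 3, and by 0.14 after quantile normalization. Propeptide genes, whose products the enzymes cut, had a median of 0.03 over 20 measured genes, and of -0.0035 after median centring, -0.01 without Bf 140 nM replicate 2, 0.07 without Bf 140 nM replicate 1 and 0.08 without DMSO 0.6% replicate 3. Only 6 of these 20 lay above the median probe set, so the median rests mostly on dim probe sets, whose differences are compressed. NPY, a peptide stored with noradrenaline, read 13.49 ± 0.24 against 13.41 ± 0.26, at the 99.0th percentile of the DMSO 0.6% arrays, and GAL, the galanin precursor, stood at 12.32 ± 0.48 against 12.16 ± 0.25. The reference genes GAPDH and ACTB differed by 0.03 (SE 0.11) and -0.02 (SE 0.10).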

How the data were processed

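Labelled RNA from 6 flasks, 3 per group, was hybridised to 1 array each. The authors computed intensities with GCOS and applied variance-stabilizing normalization (justvsn) in R 2.5.0, so the deposited values are on a generalised log2 scale that is compressed for dim probe sets; the step from probes to probe sets was not stated in the sources used here. Of 22277 probe sets 62 controls served for array quality only. Detection calls were not used here, and all other 22215 probe sets were fitted with limma 3.58.1 in R 4.3.3 as Bf 140 nM minus DMSO 0.6%, unpaired and two-sided, with Benjamini-Hochberg adjustment and a threshold of 0.10. The SAM test of the methods was not run, because it permutes the labels of so few arrays. Intervals are at 95% and come from the unpaired fit. Their width reflects having 3 arrays a group and any variation shared by arrays of the same number, which that fit does not remove. In each fit limma also draws the spread of a probe set towards a value common to all probe sets. All SEs and intervals therefore depend on that value as well as on the arrays. The SE of VGF was 0.18 in the unpaired fit and 0.11 with the replicate number as a block. The script was tested on simulated data.

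Genes were named through the platform annotation, for probe sets with 1 symbol (19064 of 22215), and represented by their brightest probe set. A percentile is the share of probe sets at or below a value on an array. The members and lists were chosen with earlier results of these data known. The text names all members, 2 genes of each list, 2 reference genes, the identity markers DBH and COL1A1 (another is not reported here), with TH, SOX10 and S100B added after their values were seen, and the 3 genes with the highest correlation with VGF among those above the median probe set. The deviations of arrays of the same number from their group means correlated at 0.601, 0.228 and 0.573. Each was over the minimum of 0.1, so the numbers in the labels were taken to pair the arrays. Arrays of unequal number were not compared in this way, so whether equal numbers are more alike was not tested. A fit with the replicate block was an alternative. The others were quantile normalization, median centring, a filter at the median probe set, beta-actin completeness as a covariate, another spread estimate, other choices of probe set and leaving out each array.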

Additional observations from a re-analysis of the deposited data

How the results depend on the processing

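The count of probe sets past an adjusted p of 0.10 was 0 with all arrays and 0 under each of the 12 alternative fits, for all probe sets, for the 11 of these genes and for the lists. With the replicate block it was 0 as well, while an unadjusted p under 0.05 was reached by 92 probe sets (0.414%), that of VGF among them, whose SE went from 0.18 to 0.11, and the block changed no call. The difference of VGF was negative under each of its 13 alternatives, from -0.44 to -0.16. Each of the other 7 genes changed sign under at least 1 of 13, but their differences were smaller, at most 0.17 for CHGB. The block, the filter at the median probe set, the other spread estimate and the mean over probe sets left VGF at -0.30 by construction. The rest reuse the same arrays, with the contrast known when the list was chosen, so nothing is read from the sign. The median over the 8 genes was 0.06, and lay between -0.10 without Bf 140 nM replicate 3 and 0.14 without Bf 140 nM replicate 2. The number of probe sets of these genes whose groups did not overlap ranged from 0 to 3 with an array left out. It was 3 without Bf 140 nM replicate 2 (VGF lower, CHGA and CHGB higher), where 17.6% of all probe sets did not overlap, and 1 without DMSO 0.6% replicate 1 (VGF), with 7.35% of all. Differences of dim probe sets are compressed towards the floor.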
